A study of Mus musculus with 18 samples.

Results

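The 10 genes described here encode collagen chains. Col1a1, Col1a2, Col2a1, Col3a1, Col5a1 and Col5a2 encode fibrillar collagens, Col6a1, Col6a2 and Col6a3 encode the chains of beaded filament collagen VI, and Col8a2 encodes a chain of the network-forming collagen VIII. They were chosen by gene symbol, with all rows of the table that belong to those symbols, and account for 10 of 23421 genes and 12 of 29851 transcripts. The table holds 33 other collagen genes. Because the genes were listed with earlier results of these libraries known, every count over them is a description.

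Fibrillar collagens are secreted as procollagens, trimmed outside the cell, assembled into staggered fibrils and crosslinked. Collagen I, a trimer of a pair of Col1a1 chains and a single Col1a2 chain, carries the load in bone, tendon and dermis. Collagen III co-assembles with it in soft connective tissue, and collagen V starts fibrils and limits their width. Collagen II is the fibrillar collagen of cartilage and is also made around the notochord of the embryo. Collagen VI forms beaded filaments near the cell surface, and collagen VIII forms the lattice under corneal and vascular endothelium. Embryoid bodies (EBs) are aggregates of embryonic stem (ES) cells that differentiate once leukemia inhibitory factor is withdrawn. In them some of these genes, such as those of collagens I and III, are taken as markers of emerging mesenchyme.

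Transcript levels came from 6 RNA-seq libraries of mouse cells of 129/Ola background, 1 per group. There are therefore no replicates, no test was possible, and every difference below has no replicate check. From the E36 ES line there are EBs labelled Eed KO, EBs labelled wild type, ES cells labelled Eed KO and ES cells labelled wild type. From the E14 ES line there are ES cells with a hairpin against Setd2 (shSetd2) and ES cells with a scrambled control hairpin (shCtrl), both delivered by the pLKO.1 lentivirus, selected with puromycin and collected on day 4 after selection. ES cells grew on gelatin in 15% serum with leukemia inhibitory factor. EBs were formed without that factor in hanging drops for 48 hours, at 1000 cells per 20 µl drop, received 0.5 µM all-trans retinoic acid between days 2 and 5, and were collected on day 9. EED is the scaffold subunit of Polycomb repressive complex 2, which methylates lysine 27 of histone H3, and SETD2 trimethylates lysine 36 of the same histone. The allele, the number of clones and the number of cultures behind each library are not given in the labels.

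Levels are FPKM, fragments scaled to transcript length and to library size, so that levels of different genes can be compared per length. Libraries made from cells labelled Eed KO are called Eed-KO-labelled. Eed mRNA did not check the Eed KO labels, with 21.8 FPKM in Eed-KO-labelled EBs and 25.0 in EB wild type, and 77.8 in Eed-KO-labelled ES cells and 72.3 in ES wild type. So the data do not test these labels, and each direction below is that of the label. Setd2 was at 2.59 FPKM in shSetd2 and 16.8 in shCtrl. The 6 pluripotency markers summed to between 1402 and 1874 FPKM in the 4 ES libraries and to 16.2 and 59.7 FPKM in the EBs labelled Eed KO and wild type. FPKM totals ranged from 452782 to 598935, and relative depth, taken from the steps between low values, ranged from 0.801 to 1.20 of that of ES wild type. That is a rough estimate, since the most common step held only 2.08% to 3.95% of the genes used.

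All 10 genes were higher in EBs than in ES cells, in both genotypes. Genes with 1 FPKM or more in either library of a comparison were taken as expressed, and those whose log2(FPKM + 1) differed by 1 or more were called higher or lower (the size rule). Differences are on that scale, on which the change of genes at low levels is understated. In wild type the 10 differences between EBs and ES cells ran from 2.00 for Col8a2 to 7.51 for Col3a1, with a median of 3.30. Between EBs and ES cells labelled Eed KO they ran from 2.79 for Col6a3 to 8.26 for Col1a2, with a median of 4.54. Over all expressed genes, 20.3% were higher in the wild-type comparison and 20.8% in the comparison of the libraries labelled Eed KO, and the medians of all genes were 0.03 and -0.05. Together the 10 genes made up 0.428% of the FPKM total in Eed-KO-labelled EBs and 0.167% in EB wild type, against at most 0.00682% in any ES library. In bulk RNA a larger share of collagen-producing cells and more collagen mRNA per cell cannot be told apart.

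**Figure D1:**
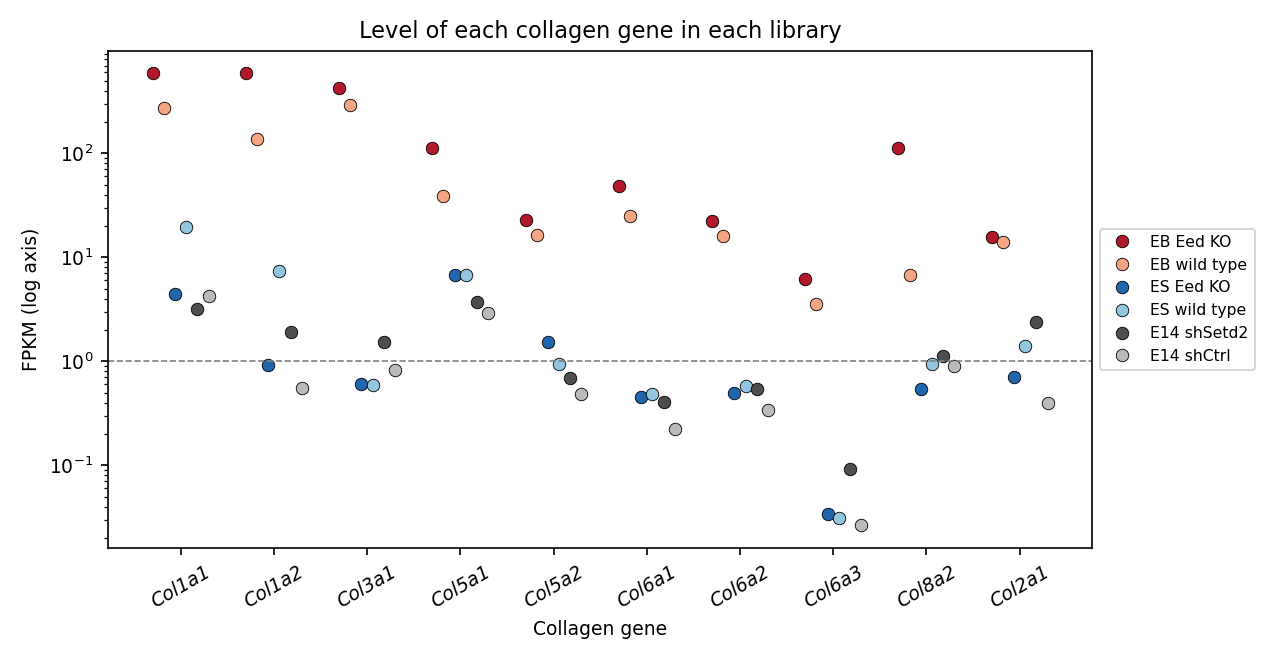
FPKM of each of the 10 collagen genes (log axis) in each of the 6 libraries, 1 point per library, with a dashed line at an FPKM of 1. Both EB libraries lie above all 4 ES libraries for every gene, and Eed-KO-labelled EBs lie above EB wild type for every gene.

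The type I collagen genes were among the most abundant mRNAs of the EBs. Col1a1 (NM_007742, mm9 chromosome 11, 94797584 to 94813170) had 587 FPKM in Eed-KO-labelled EBs, 273 in EB wild type, 4.45 in Eed-KO-labelled ES cells, 19.7 in ES wild type, 3.22 in shSetd2 and 4.23 in shCtrl. The ES wild-type library held the highest Col1a1 level of the 4 ES libraries, and the other 3 lay close together. Col1a2 (NM_007743, chromosome 6, 4455697 to 4491543) had 589 FPKM in Eed-KO-labelled EBs, 138 in EB wild type, 0.929 in Eed-KO-labelled ES cells, 7.37 in ES wild type, 1.92 in shSetd2 and 0.559 in shCtrl. In Eed-KO-labelled EBs, Col1a2 and Col1a1 ranked 114 and 115 among all genes by FPKM, and in EB wild type they ranked 429 and 216.

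Collagen III and collagen V had unequal levels. Col3a1 (NM_009930, chromosome 1, 45368383 to 45406551) had 421 FPKM in Eed-KO-labelled EBs, 289 in EB wild type, 0.608 in Eed-KO-labelled ES cells, 0.591 in ES wild type, 1.55 in shSetd2 and 0.820 in shCtrl. It was the most abundant of the 10 in EB wild type and the third in Eed-KO-labelled EBs. Col5a1 (NM_015734, chromosome 2, 27741945 to 27895030), the fibril-initiating chain, had 111 FPKM in Eed-KO-labelled EBs, 39.1 in EB wild type, 6.78 in Eed-KO-labelled ES cells, 6.73 in ES wild type, 3.69 in shSetd2 and 2.92 in shCtrl. Its partner Col5a2 (NM_007737, chromosome 1, 45431176 to 45560127) had 22.7 FPKM in Eed-KO-labelled EBs, 16.4 in EB wild type, 1.54 in Eed-KO-labelled ES cells, 0.940 in ES wild type, 0.690 in shSetd2 and 0.489 in shCtrl. Col5a1 was thus the member with the highest level in Eed-KO-labelled ES cells, and Col5a2 was within the size rule with the label in both cell states.

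The collagen VI genes were near background in ES cells, between 0.0265 and 0.578 FPKM over the 3 genes and 4 libraries. In Eed-KO-labelled EBs and in EB wild type, Col6a1 (NM_009933, chromosome 10, 76171537 to 76188789) had 48.8 and 24.8 FPKM and Col6a2 (NM_146007, chromosome 10, 76058501 to 76086149) had 22.6 and 16.1 FPKM. Col6a3 (chromosome 1, 92663435 to 92740548), the longest chain of the trimer, was the lowest of the 10 in both EB libraries. Its transcript NM_001243009 had 6.16 FPKM in Eed-KO-labelled EBs and 3.56 in EB wild type, and its transcript NM_001243008 had 1.14 and 0.964.

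Col8a2 (NM_199473, chromosome 4, 125964038 to 125991574) stood furthest from its wild-type level. It had 112 FPKM in Eed-KO-labelled EBs, 6.79 in EB wild type, 0.540 in Eed-KO-labelled ES cells, 0.942 in ES wild type, 1.12 in shSetd2 and 0.901 in shCtrl. The 5 libraries other than EB Eed KO therefore all lay under 7 FPKM. Col2a1 (chromosome 15, 97806033 to 97835155) has a pair of transcripts in the table. NM_031163 had 15.6 FPKM in Eed-KO-labelled EBs, 14.2 in EB wild type, 0.700 in Eed-KO-labelled ES cells, 1.39 in ES wild type, 2.38 in shSetd2 and 0.392 in shCtrl. NM_001113515 stayed between 0.763 and 2.55 FPKM in all 6 libraries. NM_031163 made up 86.0% of the Col2a1 sum in Eed-KO-labelled EBs and 87.6% in EB wild type, against 26.8% to 69.3% in the ES libraries. These shares rest on how the deposited values divide reads between isoforms.

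In EBs, 4 of the 10 genes were higher with the Eed KO label by the size rule and 0 were lower, beside 8.15% higher and 10.4% lower over 13919 expressed genes. Col8a2 differed by 3.86, an FPKM ratio of 16.6, Col1a2 by 2.08 (ratio 4.26), Col5a1 by 1.49 (ratio 2.85) and Col1a1 by 1.10 (ratio 2.15). The other 6 lay within the size rule and all above 0, with Col6a1 at 0.95, Col6a3 at 0.65, Col3a1 at 0.54, Col6a2 at 0.47, Col5a2 at 0.45 and Col2a1 at 0.13. The median of the 10 was 0.80 and that of all expressed genes -0.16. Col6a1 lay nearest to the size rule and passed it under each rescaling tried, at 1.07 with equal totals, 1.09 with median of ratios and 1.13 with upper quartiles. Neuronal marker mRNA moved with the same label: the 7 neuronal markers summed to 13.7 FPKM in Eed-KO-labelled EBs and 472 in EB wild type, with Tubb3 at 1.23 and 290 FPKM. Epithelial markers summed to 258 and 109 FPKM and endoderm markers to 184 and 77.8 FPKM in the same libraries. Only 5 of the 10 endoderm markers were expressed there, of which 4 were higher and 0 lower. The most abundant was Lamb1, at 67.8 and 31.9 FPKM. What part these marker differences have in the collagen values was not tested.

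**Figure D2:**
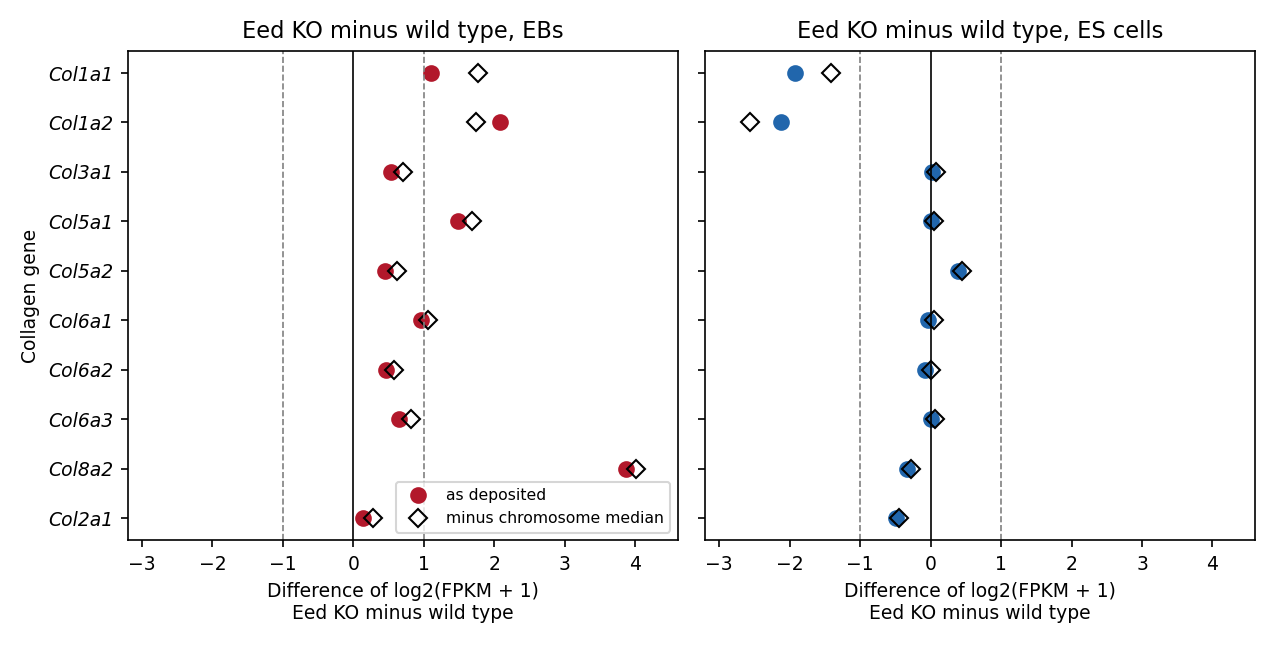
Difference of log2(FPKM + 1), Eed KO label minus wild type, for each of the 10 genes in EBs (left) and ES cells (right), with the size rule as dashed lines. Filled points are the deposited values and open diamonds the same difference minus the median of all expressed genes on that chromosome. In EBs the diamonds of Col1a1 and Col1a2 lie at 1.76 and 1.75.

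Col1a1 and Col1a2 lie on chromosomes whose genes shifted as a whole. In EBs the median difference with the Eed KO label was -0.66 over 1129 expressed genes of chromosome 11 and 0.34 over 688 of chromosome 6. Less these medians, the differences of Col1a1 and Col1a2 were 1.76 and 1.75, beside 1.10 and 2.08 as deposited. The other 8 members lie on chromosomes 1, 2, 4, 10 and 15, with medians from -0.20 to -0.11, close to that of all genes. Chromosome 3, which holds none of the 10, had a median of 0.35 over 698 expressed genes. In ES cells the medians were -0.51 on chromosome 11 and 0.45 on chromosome 6, and less these medians the differences of Col1a1 and Col1a2 were -1.42 and -2.57. The chromosome 11 shift was not seen with the Eed KO label alone. In E14 shCtrl against E36 ES wild type the median was -0.49 on chromosome 11 and -0.02 on chromosome 6.

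Chain ratios, which compare levels within a library, followed from these values. The ratio of Col1a1 to Col1a2 FPKM was 0.998 in Eed-KO-labelled EBs and 1.98 in EB wild type. It was 4.79 in Eed-KO-labelled ES cells, 2.67 in ES wild type, 1.67 in shSetd2 and 7.57 in shCtrl, where Col1a2 was at or under 1.92 FPKM except in ES wild type. Less the medians of chromosomes 11 and 6, the EB differences of Col1a1 and Col1a2 were nearly equal, at 1.76 and 1.75. Whether the chromosome shifts account for the change of their ratio between the EB libraries was not tested. In ES cells, where these medians were -0.51 and 0.45, the ratio was 4.79 with the label and 2.67 in ES wild type. It was thus higher with the label in ES cells and lower in EBs. The ratio of Col5a1 to Col5a2 was 4.91 in Eed-KO-labelled EBs and 2.39 in EB wild type, a difference that involves no shifted chromosome. Col6a1 to Col6a2 was 2.16 and 1.54 in the same libraries. Col8a2 exceeded its partner chain Col8a1 by a factor of 17.5 in Eed-KO-labelled EBs and 2.57 in EB wild type, although Col8a1 was itself higher by the size rule at 6.41 and 2.64 FPKM.

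**Figure D3:**
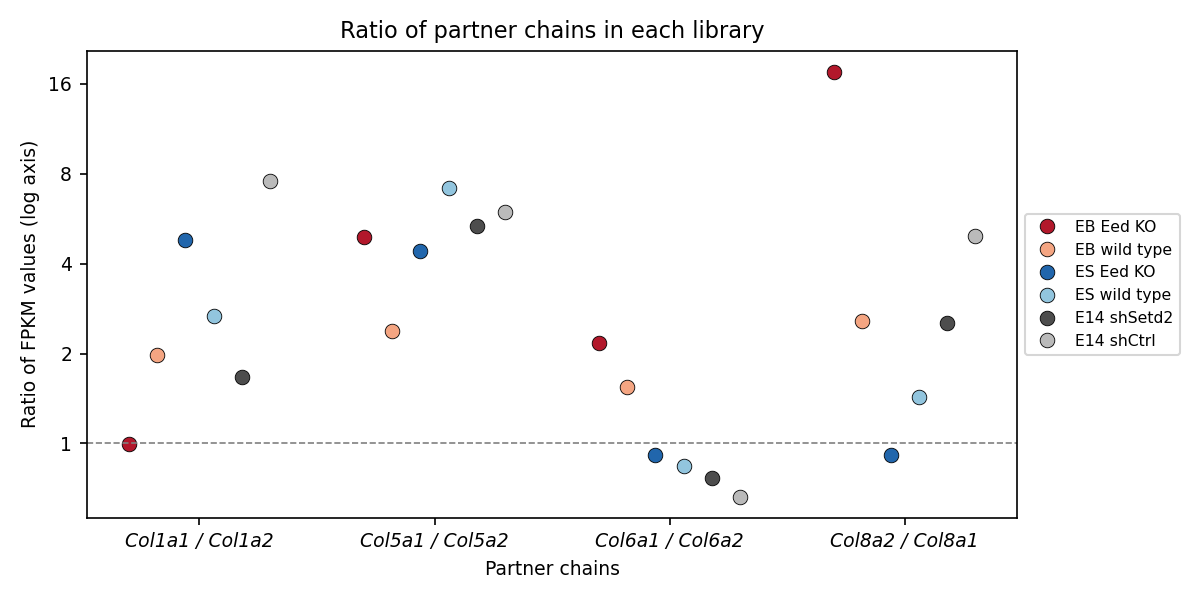
Ratio of the FPKM of partner collagen chains (log axis) in each of the 6 libraries, 1 point per library. Col1a1 to Col1a2 is 0.998 in Eed-KO-labelled EBs and 1.98 in EB wild type, and Col8a2 to Col8a1 is 17.5 and 2.57. Ratios are not corrected for chromosome medians, less which the EB differences of Col1a1 and Col1a2 were 1.76 and 1.75.

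In ES cells 2 of the 10 genes were lower with the Eed KO label and 0 were higher, beside 3.46% lower and 3.24% higher over all expressed genes. They were Col1a1, at -1.92, and Col1a2, at -2.12. Only 5 of the 10 reached an FPKM of 1 in either library, and the other 3 of these, Col5a1, Col5a2 and Col2a1, lay within the size rule at 0.01, 0.39 and -0.49. Neither call was made with E14 shCtrl as the control, against which Eed-KO-labelled ES cells differed by 0.06 for Col1a1 and 0.31 for Col1a2. The shCtrl label carries no Eed mutation, but these cells are of another line and were infected and selected. Line and treatment cannot be told apart from the Eed KO label in that comparison. Smooth muscle markers moved in the same direction, with a sum of 77.6 FPKM in Eed-KO-labelled ES cells and 181 in ES wild type. In these libraries Tagln, an actin-binding protein gene, had 39.1 and 115 FPKM and Cnn1, encoding calponin, 3.50 and 11.5. Fibroblast and mesenchyme markers summed to 19.6 and 9.33 FPKM. Of 11 expressed fibril-associated matrix genes, 1 was higher (Fbln2, at 2.65 and 0.709 FPKM) and 1 was lower (Thbs1, at 14.5 and 30.6 FPKM). Fbln2 lies on chromosome 6, where the median difference over all expressed genes was 0.45. Of 20 genes for hydroxylation, folding and secretion, 0 were higher and 2 were lower, Fkbp10 at 8.66 and 28.3 FPKM and P3h4 at 7.06 and 22.4. Among 7 expressed collagens outside the 10, the basement membrane genes Col4a1, at 46.5 and 16.7 FPKM, and Col4a2, at 21.4 and 9.78, were higher and 0 were lower. What part these have in the Col1a1 and Col1a2 values was not tested.

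The same pair of genes separated the control ES cells of the different lines. E14 shCtrl had 4.23 FPKM of Col1a1 and 0.559 of Col1a2, against 19.7 and 7.37 in E36 ES wild type, with differences of -1.98 and -2.42. Less the medians of chromosomes 11 and 6, these differences were -1.49 and -2.41. Col1a1 and Col1a2 were the 2 members lower by the size rule, with 0 higher, beside 5.65% lower and 3.14% higher over all expressed genes. Col5a1 lay just within the rule at -0.98. Marker groups moved as well: 6 of 6 epithelial markers were lower, with a sum of 196 FPKM in shCtrl and 584 in E36 ES wild type. Of 5 expressed smooth muscle markers 3 were lower and 0 higher, with a sum of 43.0 and 181 FPKM. Their part in the Col1a1 and Col1a2 values was not tested. The ES Eed KO and shCtrl comparisons share the ES wild-type library.

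With the Setd2 hairpin, 1 of the 10 genes was higher and 0 were lower, beside 0.706% higher and 1.7% lower over all expressed genes. This was Col2a1, through NM_031163 at 2.38 FPKM in shSetd2 and 0.392 in shCtrl, a difference of 1.28. Summed over both transcripts Col2a1 had 3.43 FPKM in shSetd2 and 1.46 in shCtrl, and the difference of 0.85 no longer passed. Col1a2 was within the rule at 0.91, with 1.92 and 0.559 FPKM. Of the other 8, 7 lay between 0.09 and 0.49 and Col1a1 was at -0.31, all at levels under 5 FPKM.

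Upstream sequence is shown for 4 of the genes because they include the 3 with an entry that were higher in EBs with the Eed KO label and, as a contrast, Col3a1, which was within the size rule. The 120 bases before the annotated start are printed 5′ to 3′ on the strand of the gene, from RefSeq on GRCm38.p6. Capitals mark matches, on either strand, to TATAAA (the TATA box), to CCAAT (the CCAAT box), to GGGCGG (the GC box) or to CACCTG (an E-box), of which neighbouring GC boxes may overlap.
Col8a2, chr4:126286674-126286793, plus strand: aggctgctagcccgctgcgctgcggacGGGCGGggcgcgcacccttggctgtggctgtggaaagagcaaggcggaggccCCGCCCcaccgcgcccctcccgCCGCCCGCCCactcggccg
Col1a2, chr6:4505498-4505617, plus strand: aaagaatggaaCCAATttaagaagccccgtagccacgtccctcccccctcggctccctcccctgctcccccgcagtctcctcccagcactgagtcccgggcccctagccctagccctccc
Col5a1, chr2:27886305-27886424, plus strand: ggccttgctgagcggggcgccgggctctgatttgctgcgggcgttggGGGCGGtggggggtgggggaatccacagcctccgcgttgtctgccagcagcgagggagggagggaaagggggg
Col3a1, chr1:45311418-45311537, plus strand: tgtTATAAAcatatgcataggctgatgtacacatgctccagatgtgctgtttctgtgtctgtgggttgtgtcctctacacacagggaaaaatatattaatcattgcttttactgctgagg

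The sequences before these starts differed in CpG content, which is high in the CpG islands that Polycomb complexes occupy in ES cells. Counted over 250 bases before the start, CpG dinucleotides numbered 28 for Col5a1, 24 for Col8a2, 11 for Col1a2 and 0 for Col3a1, against a median of 6 over 32851 entries. Of the 7 members with an entry, the 3 that were higher in EBs with the Eed KO label (Col8a2, Col1a2 and Col5a1) had 11 or more. Of those within the size rule, Col6a1 and Col6a3 had 3 each, and Col6a2 had 14 and 6 in its 2 entries. Over the 10603 expressed genes with an entry, 10.2% of those with fewer than 10 CpGs were higher in EBs with the Eed KO label. The share was 7.22% with at least 10 but fewer than 20 CpGs, and 6.56% with 20 or more. The share that was lower fell as well, from 11.1% with fewer than 10 CpGs to 8.19% with 20 or more. In the same order of CpG count the median differences were -0.13, -0.16 and -0.16. Genes with more CpGs were thus called less often in both directions. Over the same 250 bases, GC boxes were found in 5 of the 8 member entries and in 32.7% of all entries. TATAAA was found in 1 of 8, that of Col3a1, at -117 to -112 from the start, and in 12.4% of all. CCAAT was found in 1 of 8, that of Col1a2, and in 33.8% of all. Whether any match acts as a promoter element was not tested. CACCTG was in 0 of 8 and in 17.2% of all. Col1a1, Col2a1 and Col5a2 had no entry.

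Among the 33 other collagen genes, 23 were expressed in EBs, and 8 were higher and 3 lower with the Eed KO label, with a median of 0.89. Col11a1, a fibrillar chain that assembles with collagens II and V, had 66.7 FPKM in Eed-KO-labelled EBs and 18.0 in EB wild type. It lies on chromosome 3, where the median difference was 0.35. Col9a2, a chain of the fibril-associated collagen IX of cartilage, had 31.3 and 4.84 FPKM, and Col16a1, another fibril-associated collagen, had 15.4 and 5.49. Of the remaining fibrillar collagens, Col27a1, Col11a2 and Col24a1 lay within the rule and Col5a3 was under 1 FPKM in both. The lower genes were Col14a1, a fibril-associated collagen, at 11.5 and 39.4 FPKM, Col26a1 at 12.0 and 31.0, and Col22a1 at 1.51 and 4.39. Col6a4, Col6a5 and Col6a6 were under 1 FPKM in both EB libraries.

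**Figure D4:**
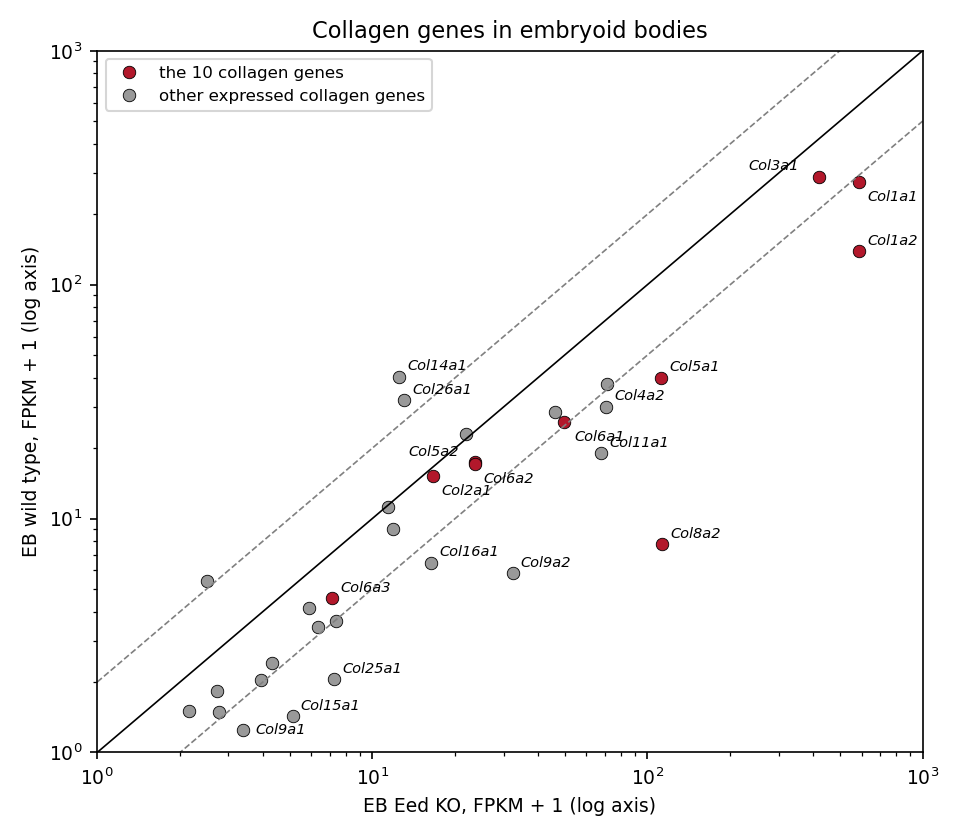
FPKM + 1 of the 33 collagen genes expressed in EBs (log axes), with Eed-KO-labelled EBs on the horizontal axis and EB wild type on the vertical axis. The solid line marks equality and the dashed lines the size rule. Col8a2, at 112 and 6.79 FPKM, lies furthest below the lines, and Col14a1 and Col26a1 lie above them.

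Genes that make and finish fibrils were mostly within the size rule with the Eed KO label in EBs, as were genes in general. Over all expressed genes 8.15% were higher and 10.4% lower, with a median of -0.16, which lay under the list medians given below. Of 22 expressed genes for procollagen hydroxylation, folding and secretion, 4 were higher and 1 lower, with a median of 0.68. Serpinh1, the collagen chaperone HSP47, had 354 FPKM in Eed-KO-labelled EBs and 220 in EB wild type, within the rule at 0.69. Sec24d, a coat protein gene for export of procollagen from the endoplasmic reticulum, had 83.7 and 18.8 FPKM. Fkbp14 had 31.6 and 10.4 FPKM, and the proline hydroxylase subunit P4ha3 had 15.4 and 5.63. Sec24d lies on chromosome 3 and Fkbp14 on chromosome 6, where the median differences were 0.35 and 0.34. Plod2, which hydroxylates lysines of the telopeptides, was lower at 13.9 and 33.6.

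Of 12 expressed genes for processing and crosslinking, 4 were higher and 1 lower, with a median of 0.70. Lox, the crosslinking lysyl oxidase, had 34.7 FPKM in Eed-KO-labelled EBs and 8.89 in EB wild type. The procollagen C-proteinase Bmp1 had 17.7 and 7.86 FPKM, and its enhancer Pcolce had 108 and 46.9. Of 20 expressed fibril-associated matrix genes, 6 were higher and 1 lower, with a median of 0.68. Among them Fmod, the small proteoglycan fibromodulin, had 20.0 and 0.454 FPKM, decorin (Dcn) 37.7 and 13.0, and elastin (Eln) 17.6 and 2.53. Of 9 receptor genes 4 were higher and 0 lower, and 8 lay above 0. Antxr1, on chromosome 6 with its median of 0.34, had 41.9 and 5.86 FPKM. It was the only higher receptor gene with 5 FPKM or more in either EB library. Ddr1, at 19.2 and 34.4 FPKM, was within the rule at -0.81. Of 11 degradation genes 3 were higher and 2 lower, with a median of -0.03, and the gelatinase Mmp2 had 199 and 84.2 FPKM.

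**Figure D5:**
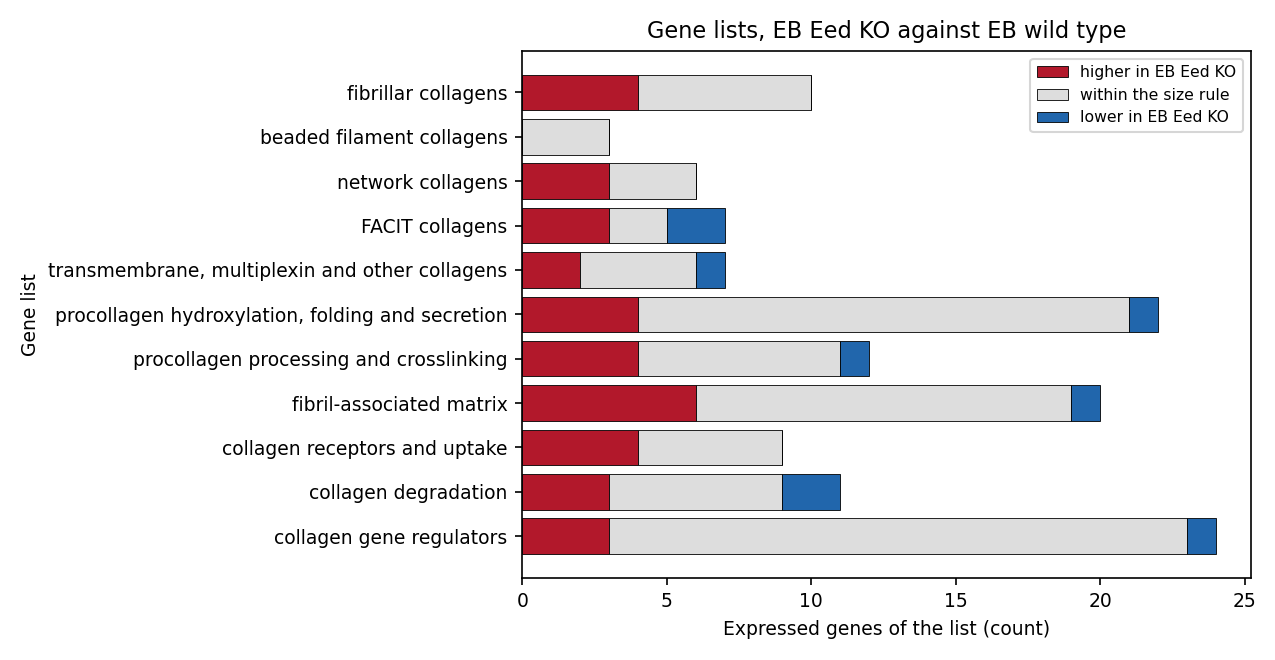
Number of expressed genes of each collagen-related list that were higher, within the size rule or lower in Eed-KO-labelled EBs against EB wild type. Most genes of each list are within the rule except among network and FACIT (fibril-associated) collagens, where 3 of 6 and 2 of 7 are. Over all expressed genes 8.15% were higher and 10.4% lower.

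Regulators and lineage markers were uneven. Of 24 expressed regulators, 3 were higher (Tgfb3, Tgfb1 and the tendon factor Scx) and 1 was lower. The lower gene was Sox9, at 6.25 FPKM in Eed-KO-labelled EBs and 14.6 in EB wild type, a difference of -1.11. Sox9 lies on chromosome 11, where the median difference over all expressed genes of that chromosome was -0.66. Col2a1, which Sox9 drives in cartilage, stayed within the rule. Of 11 expressed fibroblast and mesenchyme markers, 3 were higher and 1 lower, with a summed level of 316 and 194 FPKM. Postn, the most abundant with its transcripts summed, had 67.2 and 64.5 FPKM. Dpt was listed at 0 in Eed-KO-labelled EBs but not in EB wild type. Pdgfra, a mesenchymal growth factor receptor, had 43.2 and 14.5 FPKM, and Twist1 had 35.4 and 29.9. Of 9 expressed chondrocyte markers, 4 were higher and 1 (Sox9) lower, with a summed level of 79.4 and 28.8 FPKM. Matn4 had 10.4 and 0.135 FPKM and Hapln1 5.22 and 0.709. Col10a1 and Matn1 were listed at 0 in Eed-KO-labelled EBs, and the cartilage proteoglycan Acan had 0.517 and 0.0933 FPKM. Smooth muscle markers summed to 420.3 and 439 FPKM, and Acta2 had 199 and 210. The osteoblast genes Dmp1 and Ibsp were listed at 0 in Eed-KO-labelled EBs, and the osteoblast sums were 14.5 and 9.21 FPKM. Tendon markers summed to 262 and 96.1 FPKM, of which the immediate early gene Egr1 made up 221 and 88.3. Notochord markers summed to 14.7 and 6.27 FPKM, with Noto listed at 0 in both EB libraries, and endothelial markers to 3.07 and 6.86.

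Profiles over the 6 libraries were compared by the root mean square distance between log2(FPKM + 1) values centred on each gene's mean, among 11215 genes that reached an FPKM of 5. Among the members the closest pair was Col5a2 and Col6a2, at 0.26, and Col1a1 and Col1a2 lay 0.60 apart. Nearest to Col1a1 outside the members was Mfap2, a microfibril protein gene, at 0.26. Its main transcript had 136 FPKM in Eed-KO-labelled EBs, 59.5 in EB wild type and 1.91 in ES wild type but was near 0 in the other 3, where the sum over its transcripts was 0.429 in Eed-KO-labelled ES cells, 0.671 in shSetd2 and 0.605 in shCtrl. Next came Fos, Postn, Igfbp5 and Lsp1, at 0.68 to 0.74. Near to Col8a2 were Mgp, Tac2, Angptl2 and the locus NR_035461, at 0.40 to 0.53, with Mgp, the matrix Gla protein, at 64.5 FPKM in Eed-KO-labelled EBs and 8.30 in EB wild type. Nearest to Col6a3 were Igf1, Loxl1, Crb2, Plekho1 and Tmem26, at 0.07 to 0.11. Near to Col2a1 were Eml1, Wls, the collagen uptake receptor gene Mrc2 and Armcx3, at 0.26 to 0.28. The 6 points share the step between ES cells and EBs, so many genes have such profiles.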

How the data were processed

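The 6 RNA-seq libraries, 1 per group, were analysed. The 12 ChIP samples were not analysed here. RNA was extracted with Trizol and prepared with the TruSeq RNA kit v2, which does not mark strand, per the labels' protocols. The submitters' processing notes name TopHat, a spliced aligner, Cuffdiff, which estimates transcript levels, and the mm9 build, without saying how each was used. The sources used here do not give versions, options or the scaling of libraries. The deposited FPKM values, 1 per RefSeq transcript, are the authors' own, and reads of genes with several transcripts are divided between them.

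Of 29851 transcripts, 29300 were matched to a symbol through RefSeq (GRCm38.p6 names) and 551 kept their accession. For the 3939 genes with several transcripts, the one with the highest mean was used. Starts were written from 1: 7035 single-transcript genes have their annotated length with starts counted from 0, and 406 with starts counted from 1. The chromosomal medians, marker sums and rescalings were computed from the same table with Python 3.11.15, pandas 2.3.3 and numpy 2.4.6. Functions were tested on simulated data. No gene-level test was run with 1 library per group.

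The depth in fragments is unknown. Relative depth is the most common ratio of low values (FPKM up to 0.2 in both libraries) in transcripts spanning over 2000 bases. The members and gene lists were chosen with earlier results of these data known. Named genes are the 10 members, the other fibrillar, collagen VI and collagen VIII genes, the largest differences in EBs within each list among genes with FPKM of at least 5, the genes that define a list, and the 5 nearest profiles of 4 members, of which some are not reported here. Col22a1, the CpG counts, and Thbs1, Fkbp10, P3h4, Dmp1, Ibsp, Col10a1, Matn1, Noto, Dpt and Twist1 were chosen after their values were seen.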

Additional observations from a re-analysis of the deposited data

Results flagged for a closer look

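Col1a1 and Col1a2 moved in opposite directions with the Eed KO label in EBs and in ES cells. The label's difference in EBs minus that in ES cells was 3.03 for Col1a1 and 4.20 for Col1a2, on the log2(FPKM + 1) scale. With 1 library per group the contrast between the cell states was not tested. The ES values depend on the ES wild-type library, and neither ES call was made against E14 shCtrl, which is of another line.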

How the results depend on the processing

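Of 560 alternative values of single members, 540 kept their call. Of these, 11 changed sign, none of them called higher or lower, and the largest in size was 0.29 for Col2a1 in Eed-KO-labelled ES cells against E14 shCtrl. Leaving out replicates and a paired analysis could not be done with 1 library per group. With E14 shCtrl in place of ES wild type, 0 members were lower in Eed-KO-labelled ES cells, and the differences of Col1a1 and Col1a2 were 0.060 and 0.31 in place of -1.92 and -2.12. With the Setd2 hairpin 2 members were higher with a pseudocount of 0.1, upper-quartile or median-of-ratios rescaling, chromosome medians removed or a factor of 1.5, and 0 with an FPKM minimum of 5 or transcripts summed. The cause was not tested. In E14 shCtrl against E36 ES wild type 4 were lower with a pseudocount of 0.1 or a factor of 1.5. In EB wild type against ES wild type 9 members were higher with an FPKM minimum of 5, which Col6a3 did not reach, and 10 with E14 shCtrl as the ES library, an alternative chosen after seeing the data.

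Rescaling moved the balance of calls over all genes. In EBs 1135 genes were higher and 1450 lower with the Eed KO label as deposited, and 1428 and 1104 with upper quartiles. In ES cells the counts were 417 and 445 as deposited and 506 and 325 with equal totals. For EBs against ES cells they were 2855 and 2100 against 3601 and 1438 in wild type, and 2913 and 2738 against 3640 and 2058 with the Eed KO label, again with equal totals. For the Setd2 hairpin they were 87 and 210 against 136 and 168, and between the lines 400 and 720 against 507 and 536, with upper quartiles. Genes under about 1 FPKM in ES cells limit what depth can show there.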
